A study of Mus musculus with 8 samples.

Results

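Gene expression was compared between Dnmt3l knockout (KO) and wild type (WT) bone marrow MSCs on day 3 of osteogenic induction. The comparison rests on 4 RNA libraries, 2 of differentiating KO MSCs and 2 of differentiating WT MSCs, out of 8 in the series. The other 4 libraries are of undifferentiated KO and WT MSCs. The members are genes that averaged at least 1 RPKM (read density per kilobase of transcript, corrected for the size of each library) over the 4 differentiating libraries. Genes listed at exactly 0 in both libraries of a genotype and at 20 RPKM or more in both of the other were left out, as were Mir, Snor and Scarna genes. This left 11804 of the 24346 genes in the table. The last gene inside the limit was Zscan22 at a mean of 1.0001 RPKM, and the next outside was Lyrm7 at 0.99998 RPKM. The limit on the mean was reached in only 1 genotype by 247 members, of which 116 were higher in KO MSCs.

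WT and KO mice were littermates in a C57BL/6 background, from intercrosses of carriers of the tmEnls allele of Dnmt3l. MSCs of several mice were mixed by genotype, and whether each library had its own mix of cells is not given, so p-values measure the spread between these libraries, which may be technical. Adherent marrow cells were depleted of CD11b and CD45 positive cells with magnetic beads and were used at passage 4. All differentiating cells, WT and KO, had been in osteogenic medium with dexamethasone (a glucocorticoid), beta-glycerophosphate and L-ascorbic acid 2-phosphate for 3 days. The methods state that marrow was taken from female mice, but genes of the Y chromosome were measured in all 8 libraries. Ddx3y stood at 30.03 and 29.7 RPKM in differentiating WT and at 29.5 and 28.7 RPKM in differentiating KO MSCs, while Xist, which marks the silenced X chromosome of females, stood between 0.00769 and 0.0285 RPKM.

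DNMT3L is a cofactor without catalytic activity that helps the DNA methyltransferases DNMT3A and DNMT3B to methylate DNA in germ cells and in early embryonic cells. MSCs are stromal cells able to become osteoblasts, adipocytes or chondrocytes. Under osteogenic medium they leave the cell cycle by degrees, lay down a collagen matrix and express alkaline phosphatase, and mineral is deposited later. Dnmt3l itself, on chromosome 10, stood at 0.845 and 0.830 RPKM in the differentiating WT libraries and was listed at 0 in both KO libraries. It lies under the expression limit and is not a member. Among stromal markers Ly6a, which encodes Sca-1, stood at 1868 and 1825 RPKM in WT and at 2603 and 2523 RPKM in KO MSCs. All 12 stromal markers in the list were members. Their log2 fold changes (KO against WT) were above 0 in 5 and below 0 in 7, with a median of -0.16. The osteoblast marker Bglap stood at 0.541 and 0.494 RPKM in WT and at 0.0721 and 0 RPKM in KO MSCs. Its log2 fold change of -2.2 rests on KO values near 0, and it is not a member.

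The depth, read from the steps of the lowest RPKM values, was 67.0 and 51.6 M scaled reads in the WT and 50.5 and 49.4 M in the KO libraries. At this depth 3 reads on 1000 nt correspond to 0.0563 to 0.0763 RPKM, and this floor covers counting error only. The log2 difference between the 2 KO libraries had an SD of 0.286 over the members, against 0.207 between the 2 WT libraries. KO replicate 2 lay further from the WT mean than KO replicate 1 in 67.4% of members. For some lists, and for all calls together, counts are also given without this library. Called genes of the histone, DNA replication and matrix glycoprotein lists were fewer without it as well.

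A gene was called when its log2 fold change exceeded 1 in size and its adjusted p-value was under 0.05 (limma, Benjamini-Hochberg). All 11804 members were tested. In differentiating KO MSCs 135 members were called higher and 210 lower than in WT MSCs. Over all 15342 genes tested 3.3% were called, 1.36% higher and 1.95% lower, against 2.92% of the members. With the p-value alone, 2445 members were higher and 3202 lower in KO MSCs, beside a background of 40.7% of all genes tested (17.8% higher and 22.9% lower). KO and WT libraries did not overlap in 76.6% of members, against 70.9% of genes tested. Most differences were small, with a median absolute log2 fold change of 0.18. The median log2 fold change was -0.02 over the members, -0.0067 over all genes tested, 1.26 over the members called higher and -1.31 over those called lower. A WT mean under 1 RPKM was found for 20 of the members called higher, and a KO mean under 1 RPKM for 54 of those called lower. These had to be high in the other genotype to be members at all.

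**Figure D1:**
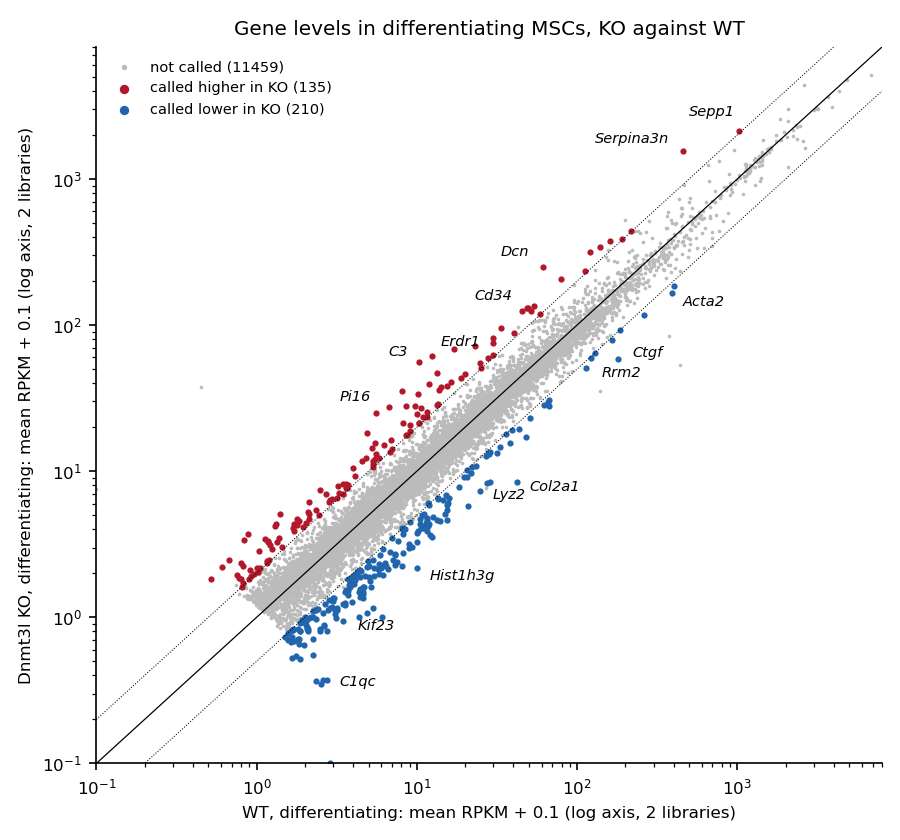
Mean RPKM + 0.1 of the 2 KO libraries against that of the 2 WT libraries for the 11804 members, both on log axes, with red and blue points for the 135 members called higher and the 210 called lower; dotted lines mark a 2-fold difference. Called members are spread over the whole range of expression, and 16 of them have a mean of at least 100 RPKM.

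The list of cell division genes held more members called lower in KO MSCs than any other list. Of 77 members in the list of kinetochore, spindle and mitosis genes, 54 were called lower and 0 higher, and with the p-value alone 73 were lower. Some of them, among them Kif23, Kif18b and Cenpf, had KO means under 1 RPKM (0.84, 0.43 and 0.71). These were members only through their WT level, so the rule favoured this count. The median log2 fold change of the list was -1.31. In bulk RNA fewer dividing cells and less RNA per dividing cell cannot be told apart. Many promoters of this group carry the cell cycle genes homology region (CHR), the letters TTTGAA, which is bound by the DREAM and MMB complexes that keep these genes silent in resting cells and active before mitosis. Short stretches around the motif are shown for 6 called genes because the motif recurs near their start sites (RefSeq, GRCm38.p6; 5′ to 3′ on the strand of the gene, CHR in capitals).
Kif23 (chr9:61946780-61946809, minus strand): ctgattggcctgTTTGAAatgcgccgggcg
Kif18b (chr11:102925104-102925133, minus strand): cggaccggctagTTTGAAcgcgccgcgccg
Cenpf (chr1:189688067-189688096, minus strand): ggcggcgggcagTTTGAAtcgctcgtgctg
Cenpa (chr5:30666890-30666919, plus strand): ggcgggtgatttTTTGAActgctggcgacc
Plk1 (chr7:122159453-122159482, plus strand): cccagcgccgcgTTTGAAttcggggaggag
Ccnb2 (chr9:70421533-70421562, minus strand): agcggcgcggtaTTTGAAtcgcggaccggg

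In Kif23, Kif18b, Cenpf and Ccnb2 the centre of the motif lies 5, 6, 5 and 7 bases after an annotated start, and in Cenpa and Plk1 19 and 33 bases after it. Windows from 250 bases before to 50 after each start were found for 8992 members. The CHR, searched on both strands, was in 65.2% of the 69 windows of the mitosis members, against 11.6% of the windows of all members and 17.9% of all 32851 windows. The CHR together with a CCAAT box (CCAAT on either strand) was in 53.6% of the mitosis windows and in 4.61% of those of all members. Among windows of members called lower 41.8% had a CHR, and among those of members called higher 12.4%. Windows were found for 128 of the 210 members called lower, for 90 of the 135 called higher and for 3 of 61 histone members. The members called lower include the 54 mitosis genes, so the 41.8% partly repeats the mitosis share. All of these shares are counts of letters and not of bound sites.

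Kif23, a kinesin needed for the final separation of daughter cells, stood at 3.14 and 3.53 RPKM in WT and at 1.04 and 0.639 RPKM in KO MSCs. Its log2 fold change of -1.90 (standard error, SE, 0.19, adjusted p = 0.0014) was the largest in the list. Mki67, which encodes the proliferation marker Ki-67, stood at 7.36 and 7.52 RPKM in WT and at 2.74 and 1.84 RPKM in KO MSCs. In both genes KO replicate 2 had the lower value, and the KO and WT libraries did not overlap, as in all 345 called members.

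The cyclins and kinases that drive mitosis were lower as well. Ccnb2 (cyclin B2) stood at 11.7 and 11.5 RPKM in WT and at 5.13 and 3.09 RPKM in KO MSCs, a log2 fold change of -1.51. Plk1, a mitotic kinase, stood at 4.71 and 5.33 RPKM in WT and at 1.86 and 1.47 RPKM in KO MSCs, a log2 fold change of -1.54. Cdk1 missed the fold limit, with 11.95 and 14.3 RPKM in WT against 7.54 and 6.04 RPKM in KO MSCs and a log2 fold change of -0.94 (adjusted p = 0.0028). Top2a, the topoisomerase that untangles chromosomes, was called at a log2 fold change of -1.26. In 74 of the 77 members both KO libraries lay below both WT libraries, beside the 70.9% of genes tested whose groups did not overlap in either direction. Cks1b, the most abundant member of the list, stood at 43.6 and 45.4 RPKM in WT and at 32.7 and 28.01 RPKM in KO MSCs. The securin gene Pttg1 (log2 fold change 0.08) and the condensin gene Smc4 (0.01) did not pass the test. Without KO replicate 2 the list had 45 called genes, and with a pseudocount of 1 it had 35.

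Genes of DNA replication were lower by smaller amounts. Of 47 members 39 were lower by the p-value and 6 were called, with a median log2 fold change of -0.55. Without KO replicate 1 the list had 10 called genes. The called genes were Uhrf1, Mcm5, Tk1, Clspn, Ccne2 and Rrm2. Rrm2, a subunit of the ribonucleotide reductase that makes DNA building blocks, stood at 118 and 125 RPKM in WT and at 64.4 and 54.1 RPKM in KO MSCs. Mcm5, a subunit of the replicative helicase, stood at 5.30 and 5.87 RPKM in WT and at 2.46 and 1.63 RPKM in KO MSCs. The CHR was in 11.6% of the 43 windows of this list.

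Histone genes, which are transcribed in S phase and whose RNA mostly lacks a poly(A) tail, were measured because ribosomal RNA was removed without poly(A) selection. Of 61 members 27 were called lower and 0 higher. Hist1h3g stood at 8.94 and 10.99 RPKM in WT and at 2.34 and 1.82 RPKM in KO MSCs, a log2 fold change of -2.21 (SE 0.14, adjusted p = 0.00065). Hist1h2ah and Hist1h2ag had the lowest values of the list, with log2 fold changes of -2.34 and -2.33. The linker histone gene Hist1h1b stood at 25.8 and 29.1 RPKM in WT and at 9.78 and 6.53 RPKM in KO MSCs. By the p-value 6 members were higher, among them Hist1h1c at 115 and 119 RPKM in WT and at 152 and 173 RPKM in KO MSCs, and H1f0, a linker histone of resting cells, at 40.01 and 40.1 against 52.7 and 53.04 RPKM. Hist1h4d, the most abundant member, did not pass the test (log2 fold change 0.09). Histone genes are near-identical copies that share reads, so single genes of this family are uncertain. On chromosome 13, which holds the main histone cluster, 7.97% of members were called. Called genes other than histone genes made up 2.37% of all members there, histone genes included. On the other autosomes and the X chromosome the share of members called was between 1.65% and 3.64%. Without WT replicate 2 the histone list had 19 called genes, and in a fit of only the 4 libraries it had 15.

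Among the regulators of the cell cycle outside these lists, Ccnd1 (cyclin D1) stood at 418 and 456.4 RPKM in WT and at 263 and 207 RPKM in KO MSCs, a log2 fold change of -0.90 (adjusted p = 0.0025). Cdkn1b, which encodes the CDK inhibitor p27, stood at 21.99 and 20.6 RPKM in WT and at 31.2 and 34.3 RPKM in KO MSCs, a log2 fold change of 0.62 (adjusted p = 0.0015). Cdkn1a, which encodes p21, was lower in KO MSCs at a log2 fold change of -0.24. Cdkn2a, a gene that rises in senescent cells, did not pass the test, with 241 and 250.1 RPKM in WT against 245 and 232 RPKM in KO MSCs. Of 35 members in this list of CDK inhibitors, D cyclins and p53 targets, Cdkn3 alone was called.

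**Figure D2:**
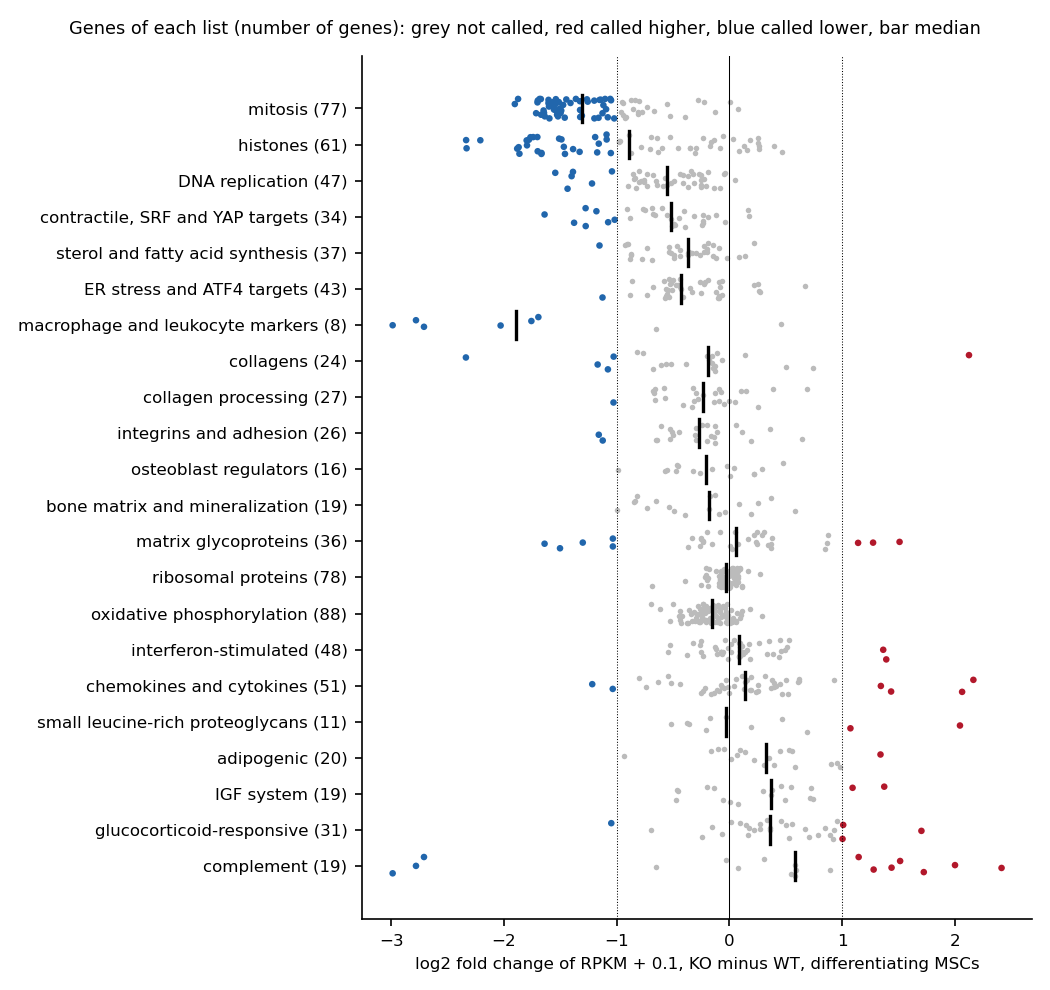
Log2 fold change (KO minus WT, differentiating MSCs) of each member in 22 of the gene lists, with the number of members in brackets, a black bar at the median and dotted lines at the fold limit. Mitosis, histone, replication and contractile genes lie mostly left of 0, complement and glucocorticoid-responsive genes mostly right of it, and ribosomal protein genes close to it.

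Genes of the contractile cytoskeleton, many of them targets of SRF and of the mechanosensitive factor YAP, were lower in KO MSCs. Of 34 members 30 were lower and 2 higher by the p-value, and 7 were called lower: Ctgf, Ankrd1, Actg2, Acta2, Tagln, Cnn1 and Myl9. Acta2, which encodes smooth muscle actin, stood at 365 and 419 RPKM in WT and at 198 and 132 RPKM in KO MSCs, a log2 fold change of -1.27 (SE 0.18, adjusted p = 0.004). Ctgf, a matricellular protein and YAP target, stood at 169.8 and 192 RPKM in WT and at 69.4 and 48.3 RPKM in KO MSCs, a log2 fold change of -1.64. In both genes the 4 libraries were ordered the same way, with WT replicate 2 highest and KO replicate 2 lowest. Without KO replicate 2 the list had 3 called genes and without WT replicate 2 it had 5. Srf itself did not pass the test (log2 fold change -0.12), and its cofactor gene Myocd, which is in no list, was called lower, with 2.04 and 1.87 RPKM in WT against 0.739 and 0.731 RPKM in KO MSCs. Amotl2 and Zyx were the 2 members of the list that were higher.

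**Figure D3:**
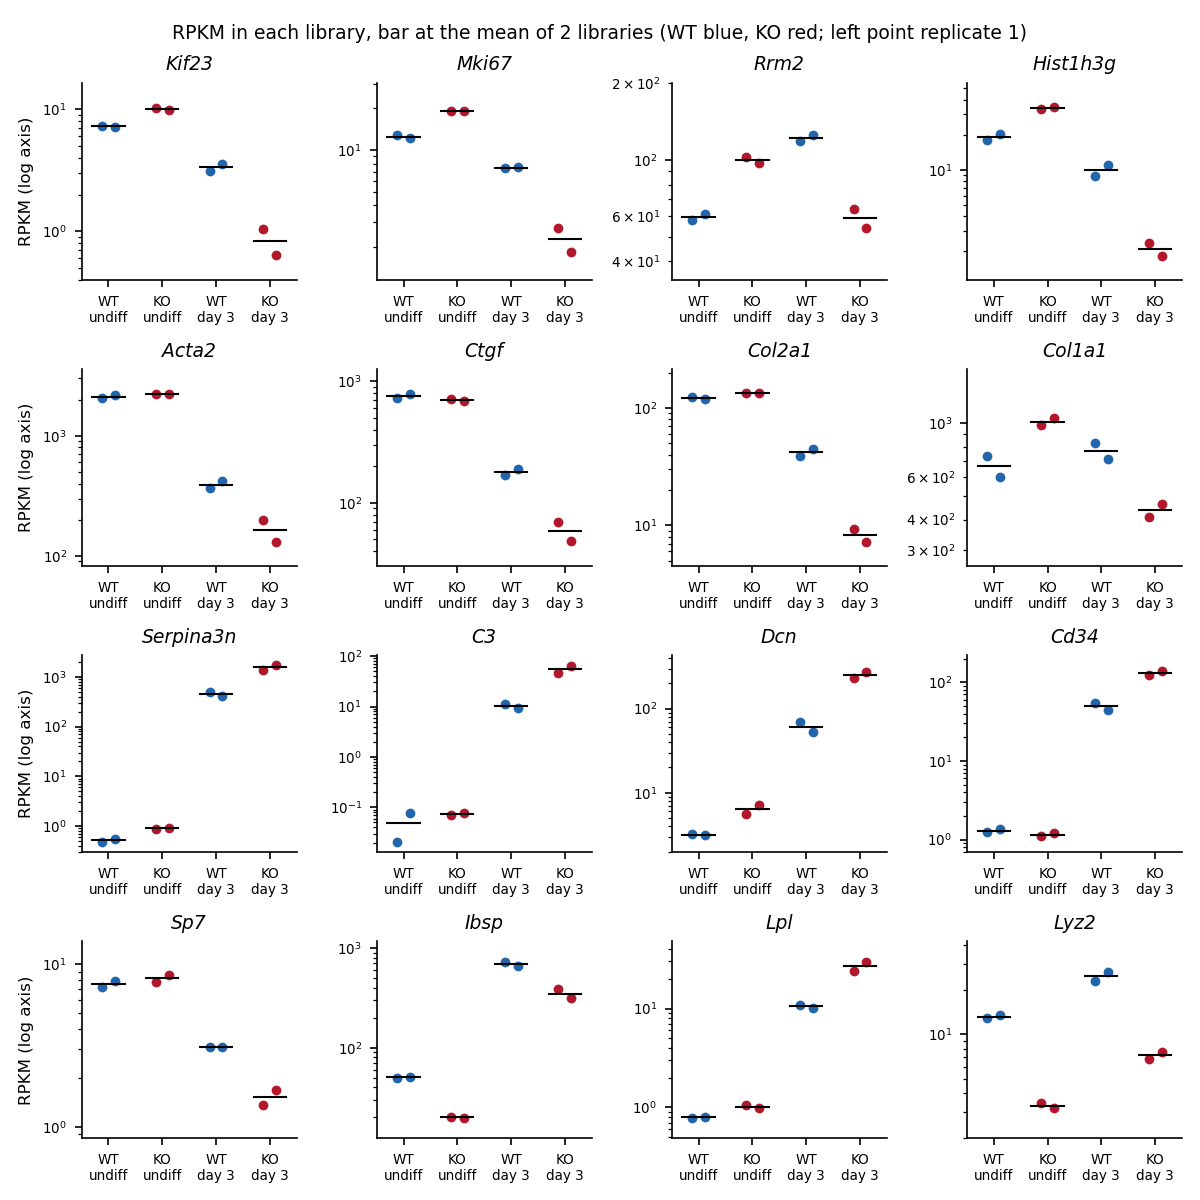
RPKM of 16 genes in each of the 8 libraries on log axes, WT in blue and KO in red, replicate 1 at the left of each pair and a bar at the mean of 2 libraries. On day 3 the KO and WT libraries do not overlap in any of these genes. Most of them were called, and no called member has libraries that overlap. In undifferentiated cells Acta2, Ctgf and Cd34 have close values in both genotypes.

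The matrix genes moved in both directions. Among 24 collagen members 4 were called lower (Col2a1, Col8a1, Col6a3 and Col8a2) and 1 higher (Col28a1), and 14 were lower and 3 higher by the p-value. Col1a1, the main chain of bone collagen, stood at 829.8 and 712 RPKM in WT and at 411 and 463 RPKM in KO MSCs, a log2 fold change of -0.82 (SE 0.13, adjusted p = 0.0049), which is inside the fold limit. Col2a1, the cartilage collagen, stood at 39.1 and 45.1 RPKM in WT and at 9.40 and 7.21 RPKM in KO MSCs, a log2 fold change of -2.34. Col6a3, a beaded-filament collagen, stood at 172 and 159.5 RPKM in WT and at 81.5 and 75.4 RPKM in KO MSCs. Col28a1, a minor collagen of basement membranes in nerve, went the other way, from 8.18 and 7.78 RPKM in WT to 32.2 and 38.4 RPKM in KO MSCs. Col3a1 did not pass the test, with 1384 and 1341 RPKM in WT against 1263 and 1195 RPKM in KO MSCs. Without KO replicate 2 the collagens had 3 genes called lower.

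Of the genes left out as listed at 0, 6 have symbols other than Mir, Snor or Scarna. No fold is given for them. Col1a2 is listed at 0 in both WT libraries and at 1098 and 1047 RPKM in KO MSCs, Lox at 0 and at 1483 and 1326 RPKM, and Thbs1 at 0 and at 1029 and 970.3 RPKM. Gsn is listed at 2984 and 2729 RPKM in WT and at 0 in both KO libraries. The others were Rn45s and AF357355. A value of 0 for genes of this abundance can be a failed estimate.

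Matricellular and fibril-associated glycoproteins held 5 members called lower and 3 called higher out of 36. Tnc (tenascin C), a protein of growing and healing tissue, stood at 49.1 and 46.5 RPKM in WT and at 18.8 and 15.1 RPKM in KO MSCs, a log2 fold change of -1.502. Tnn (tenascin W), found around forming bone, stood at 38.2 and 37.9 RPKM in WT and at 16.9 and 14.01 RPKM in KO MSCs. Wisp1, Fndc1 and Ctgf were the other members called lower. Postn (periostin), the most abundant of the list, stood at 2440 and 2264 RPKM in WT and at 1880 and 1861 RPKM in KO MSCs, a log2 fold change of -0.33 (adjusted p = 0.0058). The members called higher were Sparcl1, Tnxb and Eln. Eln (elastin) stood at 2.07 and 1.98 RPKM in WT and at 4.37 and 4.83 RPKM in KO MSCs. Comp, a cartilage and tendon protein that binds collagen fibrils, was higher inside the fold limit, with 292 and 271 RPKM in WT against 473 and 555 RPKM in KO MSCs. With a pseudocount of 1 the list had 3 members called lower and 2 called higher.

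Of the small leucine-rich proteoglycans, which bind collagen fibrils and set their width, 2 of 11 members were called higher. Dcn (decorin) stood at 68.6 and 52.96 RPKM in WT and at 230.4 and 270.1 RPKM in KO MSCs, a log2 fold change of 2.05 (SE 0.16, adjusted p = 0.0009). Lum (lumican) stood at 10.4 and 7.62 RPKM in WT and at 20.2 and 17.6 RPKM in KO MSCs. By the p-value 4 members were lower, among them Fmod (fibromodulin) at 107 and 107 RPKM in WT against 73.4 and 76.0 RPKM in KO MSCs. Bgn (biglycan), the most abundant, had a log2 fold change of -0.17 (adjusted p = 0.046) and did not pass the test in 8 of 13 alternative settings. Of 27 members for collagen processing, Loxl3 was called lower, with 124.3 and 136 RPKM in WT against 71.5 and 56.3 RPKM in KO MSCs. Of 26 integrin, syndecan and cadherin members, 16 were lower by the p-value and 2 were called, Itga11 and Cdh3. Itga11, a collagen receptor of fibroblasts and osteogenic cells, stood at 44.0 and 43.1 RPKM in WT and at 19.4 and 19.5 RPKM in KO MSCs, a log2 fold change of -1.16 (SE 0.03, adjusted p = 8.8e-06).

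Members among the genes of bone formation were mostly lower, within the fold limit. None of the 16 members that encode osteoblast transcription factors and signals, and none of the 19 for bone matrix and mineralization, were called. By the p-value 9 and 11 of them were lower and 3 and 2 higher, with median log2 fold changes of -0.21 and -0.18. Sp7 (osterix), which commits cells to the osteoblast lineage, stood at 3.12 and 3.11 RPKM in WT and at 1.36 and 1.69 RPKM in KO MSCs, a log2 fold change of -0.99 (SE 0.11, adjusted p = 0.0017). Runx2, the factor upstream of it, stood at 5.57 and 4.95 RPKM in WT and at 3.67 and 3.95 RPKM in KO MSCs, a log2 fold change of -0.45. Ibsp (bone sialoprotein) stood at 729 and 661 RPKM in WT and at 386 and 313 RPKM in KO MSCs, a log2 fold change of -0.997 that fell just inside the limit. Alpl (alkaline phosphatase) stood at 36.9 and 35.2 RPKM in WT and at 20.8 and 19.3 RPKM in KO MSCs, a log2 fold change of -0.84. Spp1 (osteopontin) stood at 715 and 680.1 RPKM in WT and at 415 and 368 RPKM in KO MSCs. In each of these genes both KO libraries lay below both WT libraries.

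Of the other regulators some were lower by the p-value and inside the fold limit. Sox9, Fosl1, Msx2, Atf4, Id1 and Cbfb, all transcription factors or partners of them, had log2 fold changes of -0.47, -0.57, -0.32, -0.26, -0.55 and -0.15. Slc20a1, a phosphate importer, stood at 14.1 and 14.4 RPKM in WT and at 9.55 and 7.73 RPKM in KO MSCs. Sparc (osteonectin), a collagen-binding protein of bone, stood at 2516 and 2591 RPKM in WT and at 1977 and 1678 RPKM in KO MSCs. Smpd3, a sphingomyelinase needed for mineralization, Pth1r, the parathyroid hormone receptor, the cadherin Cdh11 and the phosphate transporter Slc20a2 were lower as well, at log2 fold changes of -0.53, -0.39, -0.12 and -0.17. Of these genes Msx2, Cdh11, Atf4 and Sox9 did not pass the test in 6, 6, 5 and 4 of 13 alternative settings. Bmp1, a protease that trims procollagen, was higher at 0.25.

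Several genes of this group did not follow. Mgp, an inhibitor of calcification and the most abundant of the mineralization list, stood at 3202 and 3090 RPKM in WT and at 3110 and 3036 RPKM in KO MSCs and did not pass the test. Id2, Twist1 and Twist2, which restrain osteoblast differentiation, were higher at log2 fold changes of 0.48, 0.29 and 0.22. Tnfsf11 (RANKL), which drives osteoclast formation, was higher at a log2 fold change of 0.37, and its decoy receptor gene Tnfrsf11b was lower at -0.65. Runx1, Csf1, Id3, Id4, Ank, Enpp1, Omd, Ifitm5 and Zbtb16 did not pass the test.

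Most adipogenic genes that passed the test were higher. Of 20 members 11 were higher and 1 lower by the p-value, with a median log2 fold change of 0.33, and Lpl was called. Lpl (lipoprotein lipase), which releases fatty acids from lipoproteins, stood at 10.8 and 10.3 RPKM in WT and at 23.8 and 29.9 RPKM in KO MSCs, a log2 fold change of 1.33. Lipe, a lipase of fat droplets, stood at 1.31 and 1.08 RPKM in WT and at 2.41 and 2.50 RPKM in KO MSCs. Pparg, the main regulator of fat cell formation, did not pass the test, with 22.9 and 22.5 RPKM in WT against 22.1 and 21.8 RPKM in KO MSCs. Fabp4 did not pass it either, and Fabp5 was lower at a log2 fold change of -0.93.

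The complement list held more members called higher than any other list. Of 19 complement members 7 were called higher (C3, C4b, Clu, Cfb, C1s1, Serping1 and C1ra) and 3 lower, and 7 were called higher with each of the 4 libraries left out in turn. C3, the central component of the cascade, stood at 11.3 and 9.21 RPKM in WT and at 46.1 and 65.1 RPKM in KO MSCs, a log2 fold change of 2.42 (SE 0.24, adjusted p = 0.0014), the highest of the 135 members called higher. C4b stood at 17.7 and 16.1 RPKM in WT and at 62.6 and 73.6 RPKM in KO MSCs. Cfb, the protease of the alternative pathway, stood at 32.0 and 34.5 RPKM in WT and at 98.6 and 92.1 RPKM in KO MSCs. Serping1, the inhibitor of the first component, stood at 148 and 131 RPKM in WT and at 308 and 372 RPKM in KO MSCs.

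The 3 complement genes called lower, C1qa, C1qb and C1qc, are made mainly by macrophages. C1qc stood at 2.47 and 2.86 RPKM in WT and at 0.140 and 0.403 RPKM in KO MSCs. Of 8 macrophage and leukocyte markers that were members, 6 were called lower: the C1q genes, Mrc1, Lyz2 and Fcer1g. All of these but Lyz2 had KO means under 1 RPKM and were members only through their WT level, so this count was favoured by the rule. Lyz2 (lysozyme) stood at 22.9 and 26.5 RPKM in WT and at 6.81 and 7.66 RPKM in KO MSCs, a log2 fold change of -1.76. The RPKM summed over all 17 markers of the list was 41.8 and 49.0 in WT and 15.4 and 17.0 in KO MSCs. Ptprc, which encodes the CD45 used for depletion, was at 0.0808 and 0.0808 RPKM in WT and at 0 and 0.00405 RPKM in KO MSCs. Itgam, which encodes CD11b, was at 0.293 and 0.356 RPKM in WT and at 0.0399 and 0.0270 RPKM in KO MSCs. Cd14 was higher in KO MSCs inside the fold limit, at 4.67 and 4.90 RPKM against 3.48 and 3.43 RPKM. It did not pass the test with any of the 4 libraries left out. Outside the list Ctss, Lyz1, F13a1 and Wfdc17, genes also known from myeloid cells, were called lower, with log2 fold changes of -2.84, -1.78, -1.86 and -2.12. Ctss, F13a1 and Wfdc17 had KO means under 1 RPKM as well. The part of remaining myeloid cells in the levels of the other members was not tested.

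Several other genes of secreted proteins, in no list except Lcn2 and picked from the called members, were higher. Serpina3n, a protease inhibitor, stood at 491 and 423 RPKM in WT and at 1400 and 1708 RPKM in KO MSCs, a log2 fold change of 1.76 (SE 0.12, adjusted p = 0.0007). Lbp, which binds bacterial lipopolysaccharide, stood at 126 and 115 RPKM in WT and at 289.5 and 339 RPKM in KO MSCs. Lcn2, which withholds iron from bacteria, stood at 9.17 and 7.69 RPKM in WT and at 25.9 and 29.5 RPKM in KO MSCs. Orm2 was near the limit of the rule, with 0.705 and 0.307 RPKM in WT against 2.16 and 2.05 RPKM in KO MSCs. Sepp1 (selenoprotein P), which carries selenium, stood at 1083 and 977 RPKM in WT and at 2035 and 2254 RPKM in KO MSCs. Serpina3 and Orm genes are close paralogs that can share reads. Both KO libraries lay above both WT libraries in these genes, as the genotypes did not overlap in any of the 345 called members.

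Genes that respond to glucocorticoids, which the medium of both genotypes contained, were mostly higher in KO MSCs. Of 31 members 22 were higher and 4 lower by the p-value, with a median log2 fold change of 0.37. Lcn2, Txnip and Saa3 were called higher and Aqp1 lower. Txnip, an inhibitor of thioredoxin, stood at 203 and 180.4 RPKM in WT and at 360.4 and 413 RPKM in KO MSCs. Tsc22d3 (GILZ) stood at 456.0 and 436 RPKM in WT and at 613 and 648 RPKM in KO MSCs, a log2 fold change of 0.50. Nr3c1, the receptor gene, did not pass the test (log2 fold change 0.09), and Fkbp5 at 0.17 did not either. Without KO replicate 2, without WT replicate 2 and with a pseudocount of 0.01 the list had 1 gene called higher, without KO replicate 1 it had 5 and without WT replicate 1 it had 4. Saa3 did not pass the p-value in 5 of 13 alternative settings, a count that leaves the fold limit aside.

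Among 51 chemokine, interleukin and receptor members, 4 were called higher and 2 lower. Il1r2, a decoy receptor for interleukin 1, stood at 5.91 and 4.97 RPKM in WT and at 22.04 and 27.7 RPKM in KO MSCs, a log2 fold change of 2.17. Ccl8, Il33 and Il27ra were the others called higher, and with a pseudocount of 1 the list had 2 called higher. Cxcl12, which holds blood stem cells in the marrow, was higher inside the fold limit, with 377 and 349.8 RPKM in WT against 520.3 and 588 RPKM in KO MSCs. Of 48 interferon-stimulated members 2 were called, Ifi205 and Ifitm1, both higher. Isg15 varied within the genotypes, with 18.7 and 39.4 RPKM in WT against 30.1 and 11.7 RPKM in KO MSCs, and did not pass the test.

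Among growth factor genes Igfbp3, which binds insulin-like growth factors, stood at 85.9 and 72.3 RPKM in WT and at 184 and 227 RPKM in KO MSCs, a log2 fold change of 1.37. Stc2, which blocks the release of these factors, was the other called member of 19. Igf1 did not pass the test. Of 53 BMP and TGF-beta members Chrdl1, a BMP antagonist, was called higher and Ltbp2 lower. Hes1, a Notch target, stood at 10.1 and 10.8 RPKM in WT and at 4.52 and 3.396 RPKM in KO MSCs, a log2 fold change of -1.39. Etv4, a target of FGF signalling, stood at 1.35 and 1.76 RPKM in WT and at 0.688 and 0.586 RPKM in KO MSCs. Gas1, which binds hedgehog proteins and halts the cell cycle when overexpressed, stood at 231.2 and 206 RPKM in WT and at 401 and 479 RPKM in KO MSCs. Ntn4 (netrin 4) was called higher at a log2 fold change of 1.39. Of 38 Wnt members 0 were called, with 9 higher and 10 lower by the p-value.

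Several metabolic lists held more lower than higher members. Of 37 sterol and fatty acid synthesis members 27 were lower and 1 higher by the p-value, with a median log2 fold change of -0.37. Of 43 members of the unfolded protein and ATF4 responses 31 were lower, and Mthfd2, a mitochondrial folate enzyme, was called. Hspa5 (BiP), the main chaperone of the endoplasmic reticulum, stood at 370.3 and 392 RPKM in WT and at 285 and 229 RPKM in KO MSCs. Of 88 members of the respiratory chain 36 were lower and 0 were called. Of 78 ribosomal protein members 0 were called and 69 did not pass the test; Rplp1 stood at 4689 and 4961 RPKM in WT and at 4884 and 4603 RPKM in KO MSCs. The glutathione transferase genes Gstm1, Gstt1 and Gstt2 were called higher. Gstm1 stood at 31.6 and 27.95 RPKM in WT and at 67.8 and 83.3 RPKM in KO MSCs.

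Of the DNA methylation genes most did not pass the test. Of 21 members 2 were called, both lower: Uhrf1, which brings DNMT1 to newly made DNA, and Hells, a chromatin remodeller. Uhrf1 stood at 4.85 and 5.70 RPKM in WT and at 2.33 and 1.29 RPKM in KO MSCs, a log2 fold change of -1.54. Dnmt1 stood at 12.3 and 12.8 RPKM in WT and at 9.28 and 8.60 RPKM in KO MSCs, a log2 fold change of -0.48 (adjusted p = 0.0014). Dnmt3a, the usual partner of DNMT3L, stood at 2.64 and 2.58 RPKM in WT and at 2.47 and 2.78 RPKM in KO MSCs and did not pass the test. Setdb1 and Trim28 did not pass it either. Of 35 imprinted members Dcn was called higher and Mest lower, with Mest at 11.03 and 10.7 RPKM in WT against 5.37 and 4.42 RPKM in KO MSCs. None of 41 germline genes in the table reached the expression limit. Of 147 members within 5 Mb of Dnmt3l on chromosome 10, 4 were called (2.72%, against 2.92% of all members), all higher: Ggt5, Glt8d2, Gstt1 and Gstt2. Ggt5 and Gstt2 lay just past the fold limit, with log2 fold changes of 1.003 and 1.006.

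The CpG ratio of the promoters differed between the members called higher and the members as a whole. The ratio of observed to expected CpG had a median of 0.384 in their 113 windows, 0.766 in the 141 windows of the members called lower and 0.759 in the windows of all members. Over all 32851 windows the median was 0.384 too. Windows with a ratio of at least 0.6 made up 31.0% of the first group, 61.0% of the second, 70.2% of all members' windows and 35.8% of all windows. The complement windows had a median of 0.253 and the mitosis windows one of 0.884.

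**Figure D4:**
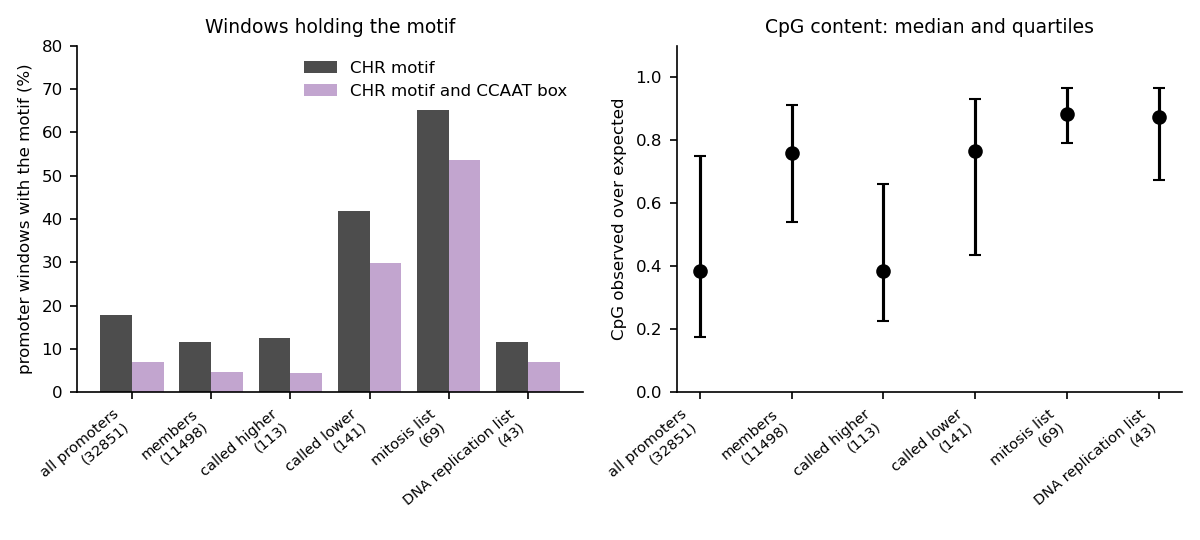
Left, share of promoter windows (250 bases before to 50 after a start, number of windows in brackets) with a CHR motif or with a CHR and a CCAAT box. Right, median and quartiles of the observed over expected CpG ratio. The mitosis list has the CHR in 65.2% of windows, and the members called higher have a median CpG ratio of 0.384, against 0.759 over all members and 0.384 over all promoters.

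Of the 345 called members 183 were in none of the 49 gene lists. Ppap2b, a lipid phosphatase, stood at 169 and 152 RPKM in WT and at 339 and 408 RPKM in KO MSCs, and Sned1, a matrix protein, at 117 and 105 against 209.5 and 258 RPKM. Egfl6, another matrix protein, was among the largest changes, with 0.924 and 0.638 RPKM in WT and 3.30 and 3.91 RPKM in KO MSCs. Most of the genes that follow were picked after their values were seen. Cd34, a surface protein of progenitor cells, stood at 54.5 and 44.7 RPKM in WT and at 123.3 and 138 RPKM in KO MSCs, a log2 fold change of 1.40. Pi16, a peptidase inhibitor of connective tissue, stood at 7.22 and 6.04 RPKM in WT and at 24.5 and 29.97 RPKM in KO MSCs. Dpt (dermatopontin), a matrix protein, stood at 5.52 and 4.83 RPKM in WT and at 14.4 and 14.1 RPKM in KO MSCs. Apoe, which carries lipids, stood at 10.7 and 9.41 RPKM in WT and at 28.2 and 38.8 RPKM in KO MSCs. Procr, the receptor of protein C, stood at 50.9 and 46.4 RPKM in WT and at 119.8 and 142 RPKM in KO MSCs. Among genes called lower in no list, Tubb6 stood at 60.9 and 69.8 RPKM in WT and at 33.8 and 25.1 RPKM in KO MSCs, and Ptgs2 (a cyclooxygenase) at 5.85 and 6.62 RPKM against 2.68 and 1.79 RPKM. The protease gene Adamts15 stood at 0.637 and 0.509 RPKM in WT and at 2.13 and 2.56 RPKM in KO MSCs, and the skeletal actin gene Acta1 at 3.28 and 4.00 against 1.82 and 1.64 RPKM. Both were called. The DNA repair gene Brca1 was called lower at a log2 fold change of -1.01.

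The most abundant members of the remaining lists were mostly inside the fold limit. Serpinh1, the collagen chaperone, Timp1, a protease inhibitor, Tpm4, a tropomyosin, Scd2, a fatty acid desaturase, and Calr, a chaperone, were lower at log2 fold changes of -0.66, -0.68, -0.77, -0.78 and -0.51. Rrm1, Pkm, Itgb1 and Pcdhgc3 were lower at -0.55, -0.49, -0.30 and -0.46. Mt2, a metallothionein, Nrp1, a co-receptor for semaphorins and VEGF, Figf, a VEGF family ligand, Tek, the angiopoietin receptor, and Aldh1a1, which makes retinoic acid, were higher at 0.71, 0.71, 0.68, 0.83 and 0.53. Ifitm2, Igfbp4, Rbpj, B2m, Hoxa10 and Ctsd were higher at 0.53, 0.46, 0.38, 0.31, 0.26 and 0.18. B2m and Ctsd did not pass the test in 7 and 5 of 13 alternative settings. Klf6, Fstl1, Csnk1d, Ehmt2, Fgf7, Gnas, Timp2, Cox4i1 and Ctnnb1 did not pass the test. Angptl7, Rarres2 and Il18rap were called, at 1.08, 1.01 and -1.22. Rarres2 did not pass the p-value in 4 of 13 alternative settings, a count that leaves the fold limit aside.

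A further 15 members passed the fold limit and not the p-value. The most extreme with annotated function was Atp6v0c, a subunit of the vacuolar proton pump, with 0.214 and 0.487 RPKM in WT against 45.5 and 30.3 RPKM in KO MSCs (adjusted p = 0.07). In undifferentiated cells it stood at 0.105 and 9.07 RPKM in WT and at 6.91 and 0.0349 RPKM in KO MSCs, so its libraries differed within both genotypes. The lowest log2 fold change among called members, -4.81, belonged to the snoRNA gene Gm24148, which is listed at 0 in both KO libraries and at 3.34 and 2.18 RPKM in WT; a fold against 0 depends on the pseudocount. Its call was lost with any of the 4 libraries left out.

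The genotype difference on day 3 was set beside that in undifferentiated cells. The day 3 fold changes come from the 4 differentiating libraries alone, while the spread behind the p-values was estimated over all 8 libraries. In a fit of only the 4 differentiating libraries 128 members were called higher and 175 lower, and 300 of the 345 calls were made. In undifferentiated MSCs 37 members were called higher and 88 lower in KO, beside a background of 1.7% of genes tested. Of these 125, 25 were called on day 3 too, and 23 of them in the same direction. They include Erdr1, with log2 fold changes of 2.09 in undifferentiated and 2.29 in differentiating MSCs, Itga11 (-1.17 and -1.16), Lyz2 (-1.96 and -1.76), Lum (1.19 and 1.07) and Tnxb (1.16 and 1.28). Erdr1 lies in a repeated region shared by the sex chromosomes, and its value is uncertain. Ndrg1, a stress-responsive gene, was lower in undifferentiated KO MSCs (-1.07) and higher on day 3 (1.31), and Adh1 went the same way. Over all members 45.6% had the same sign in both states, and the Pearson correlation of the 2 log2 fold changes across the 11804 genes was -0.055, which is a description, since genes are not independent.

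A test of the difference between the 2 states (the interaction of genotype and state) called 686 members, 299 with a higher and 387 with a lower KO effect on day 3, beside a background of 6.17% of genes tested. These included 269 of the 345 members called on day 3, an overlap partly built in, since the interaction contains the same day 3 difference. In the mitosis list 69 of 77 members were among the 387. The median log2 fold change of that list was 0.43 in undifferentiated and -1.31 in differentiating MSCs, and 32 of its members were higher in undifferentiated KO MSCs by the p-value and 0 lower. Kif23 stood at 7.37 and 7.16 RPKM in undifferentiated WT and at 10.3 and 9.88 RPKM in undifferentiated KO MSCs, and its KO effect differed by -2.37 between the states (adjusted p = 0.002). Histone genes had a median of 0.52 in undifferentiated and -0.89 in differentiating MSCs. Contractile genes had a median of 0.03 in undifferentiated MSCs, where Acta2 stood at 2052 and 2165 RPKM in WT and at 2236 and 2213 RPKM in KO. Complement genes had medians of -0.431 and 0.585, and 10 of 19 had a higher KO effect on day 3. The macrophage markers had medians below 0 in both states, at -1.34 and -1.89. The interferon-stimulated genes had medians of -0.75 and 0.09.

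**Figure D5:**
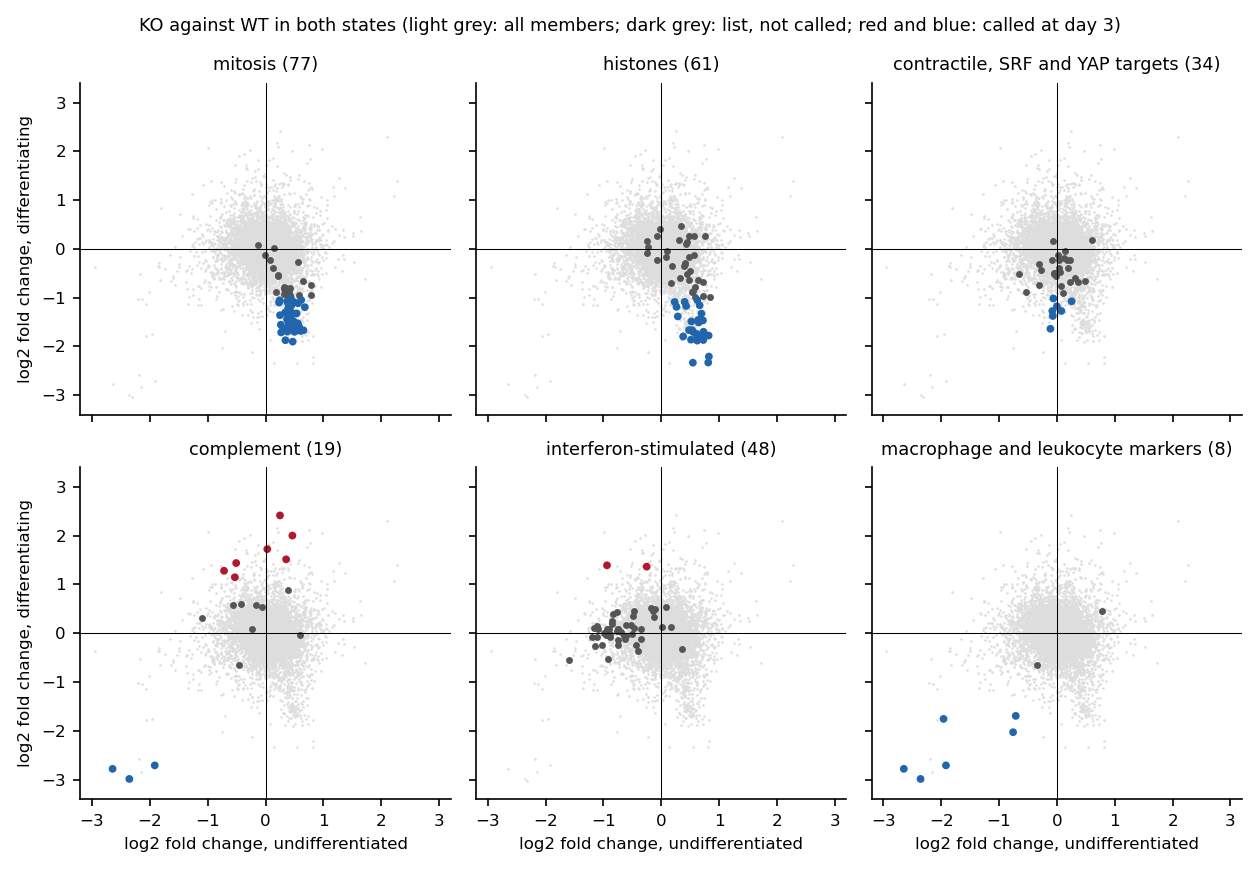
Log2 fold change of KO against WT in differentiating MSCs (vertical) against that in undifferentiated MSCs (horizontal), with the members of 6 lists over all members in light grey; 9 members lie outside the axes, of which 0 are in these lists. Of the mitosis genes 74 of 77 and of the histone genes 48 of 61 lie below and to the right of the origin, and macrophage markers mostly below and to the left.

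The order of the libraries was shared by many called genes. KO replicate 2 had the more extreme value in 190 of the 210 members called lower and in 116 of the 135 called higher. WT replicate 1 lay nearer to the KO libraries in 172 of the members called lower and in 114 of those called higher. Of the 345 called members 242 were also called without KO replicate 2, 332 without KO replicate 1, 272 without WT replicate 2 and 330 without WT replicate 1, and 220 under each of these 4 settings. In all 345 the KO and WT libraries did not overlap, so leaving out 1 library could not turn a sign.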

How the data were processed

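RNA was measured in 8 libraries of MSCs, 2 each of WT and KO cells, before induction and on day 3 of it. Per the study's methods, ribosomal RNA was depleted, stranded libraries were sequenced, and reads were aligned to mm10 with TopHat2 2.1.0 and quantified with Cufflinks 2.2.1 and Cuffdiff. The authors deposited RPKM values per gene and library, without read counts, so no count test was used. Low RPKM values were whole multiples of 1 read (within 0.05 reads) for about 71% of values, too few to recover counts.

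From the deposited RPKM, log2(RPKM + 0.1) was fitted with limma 3.58.1 (R 4.3.3) to the 15342 genes that averaged 0.1 RPKM or more, with 4 group means over all 8 libraries, a variance trend and Benjamini-Hochberg adjustment. This scale understates the fold changes of low genes. A gene was called when it differed by more than 1 in log2 fold change and had an adjusted p under 0.05. Sequence windows were RefSeq promoters. Tables and figures were made with Python 3.11.15, pandas 2.3.3, numpy 2.4.6 and matplotlib 3.10.9. On simulated data 198 of 200 changed genes were recovered with 5 false calls. Whether this recovery holds for the measured libraries was not tested.

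The members and gene lists were chosen with earlier results of these data known. Genes were named by a rule: Dnmt3l, the 10 called genes in each direction with the largest log2 fold change and the 10 with the largest difference of mean RPKM (predicted genes left out), the most abundant member and the most changed called members of each list, and all members of the osteoblast and bone matrix lists. Other genes were named after their values were seen, and some genes that the rule picks are not reported here. Deviations from the group means in libraries of the same replicate number correlated at -0.094 to 0.035 over 12269 genes. This cannot show whether those libraries shared a mix of cells, and the main fit used no pairing. Alternatives covered the pseudocount, the filter, the scaling, the variance trend, a replicate block, the libraries fitted and each library left out.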

Additional observations from a re-analysis of the deposited data

Results flagged for a closer look

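For each gene below the log2 fold change of KO against WT differed between the states in the test of the interaction (limma, adjusted p under 0.05 and a difference above 1 in size). The value given is the log2 fold change in differentiating MSCs minus that in undifferentiated MSCs. Below 0 the KO level, relative to WT, was lower on day 3 than before induction. The genes given are only a part of the 686 members with an interaction, so the lists below are not complete. In full, 69 mitosis, 36 histone and 23 replication members had a value below 0 in this test. A value above 0 was found for 10 complement, 8 glucocorticoid-responsive and 6 interferon-stimulated members.

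Mitosis genes with a value below 0 were Kif23 (-2.37), Kif18b (-2.33), Mki67 (-2.28), Cenpa (-2.12), Plk1 (-2.06), Ccnb2 (-1.99), Cenpf (-1.97), Top2a (-1.67) and Cdk1 (-1.37). Replication genes with a value below 0 were Mcm5 (-2.05), Tk1 (-2.05), Uhrf1 (-1.98), Clspn (-1.92), Rrm2 (-1.78) and Ccne2 (-1.54). Histone genes with a value below 0 were Hist1h2ag (-3.14), Hist1h3g (-3.03), Hist1h2ah (-2.88) and Hist1h1b (-2.46). Contractile genes with a value below 0 were Ctgf (-1.53), Acta2 (-1.35), Cnn1 (-1.33), Ankrd1 (-1.31), Actg2 (-1.20) and Tagln (-1.18). Among glucocorticoid-responsive genes the value was below 0 for Aqp1 (-1.80). Matrix glycoprotein genes with a value below 0 were Tnc (-1.36) and Tnn (-1.06). Osteoblast regulators with a value below 0 were Fosl1 (-1.16), Id1 (-1.13), Sp7 (-1.10) and Sox9 (-1.08). Other genes with a value below 0 were Col2a1 (-2.48), F13a1 (-1.93), Wfdc17 (-1.88), Ptgs2 (-1.78), Etv4 (-1.71), Myocd (-1.70), Ltbp2 (-1.62), Il18rap (-1.59), Hells (-1.53), Acta1 (-1.48), Tubb6 (-1.45), Col1a1 (-1.43), Brca1 (-1.39) and Loxl3 (-1.35). Further other genes with a value below 0 were Cdkn3 (-1.27), Mrc1 (-1.27), Hes1 (-1.23), Angptl7 (-1.14) and Timp1 (-1.05).

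Complement genes with a value above 0 were C3 (2.17), Serping1 (2.0), C1s1 (1.95), Clu (1.70), C1ra (1.68), C4b (1.54) and Cfb (1.16). Glucocorticoid-responsive genes with a value above 0 were Saa3 (1.93) and Lcn2 (1.51). Matrix glycoprotein genes with a value above 0 were Eln (1.81) and Fndc1 (1.1). Small leucine-rich proteoglycan genes with a value above 0 were Omd (1.17) and Dcn (1.07). Interferon-stimulated genes with a value above 0 were Ifi205 (2.33) and Ifitm1 (1.62). Other genes with a value above 0 were Ccl8 (3.05), Adh1 (2.41), Ndrg1 (2.39), Orm2 (2.32), Pi16 (2.30), Igfbp3 (2.15), Apoe (2.05), Il1r2 (1.97), Chrdl1 (1.90), Egfl6 (1.87), Rarres2 (1.79), Adamts15 (1.74), Glt8d2 (1.74) and Lbp (1.71). Further other genes with a value above 0 were Dpt (1.68), Ggt5 (1.68), Sepp1 (1.65), Cd34 (1.56), Tek (1.39), Col28a1 (1.38), Stc2 (1.30), Igf1 (1.25), Col8a2 (1.18), Gstm1 (1.17), Il27ra (1.09), Serpina3n (1.05), Lpl (1.02) and Procr (1.0).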

How the results depend on the processing

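With a pseudocount of 1 in place of 0.1, 81 members were called higher and 120 lower in differentiating KO MSCs (135 and 210 before), 164 had a higher KO effect on day 3 in the interaction, and 11 were higher and 48 lower in undifferentiated MSCs. Without the fold limit these counts were 2445 and 3202, then 2718 and 2812 in the interaction, and 1992 and 2425 in undifferentiated MSCs. A larger pseudocount shrinks the fold changes of low genes by construction. With 1 library left out, members called higher numbered 98 to 160 and lower 155 to 275, and those with an interaction 249 to 310 and 353 to 436; in these fits the lone library is assumed to vary like the other groups. The replicate block gave 134 and 209 calls, 296 and 385 with an interaction and 37 and 84 in undifferentiated MSCs, so it moved none of these counts by over 1.5 times. A fit of only the 4 differentiating libraries gave 128 and 175. Of the 345 calls 146 were made under every alternative, and 0 changed sign. With 1 library left out a sign could not change, since the KO and WT libraries of all 345 did not overlap. Counts per gene list under each alternative were added after seeing the data.

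Depth was estimated from RPKM steps and not from counts. A level under 0.0763 RPKM on 1000 nt corresponds to fewer than 3 reads in at least 1 of these libraries.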
